A study of Drosophila melanogaster with 2 samples.

Results

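The genes described here encode the protein complexes of oxidative phosphorylation. They were taken as the protein-coding genes of the dm6 annotation on the major chromosome arms whose symbols begin with ND- (complex I), Sdh (complex II), UQCR- (complex III), COX (complex IV) or ATPsyn (complex V), which gave 88 of 13968 genes. Complex I had 40 members, complex II had 8, complex III had 9, complex IV had 16 and complex V had 15. A member is called bound below when a peak summit of the authors' pooled thresholded set lay within 500 bp of any of its annotated transcript starts. The symbols set the membership and measured values did not, but these genes were chosen for description with earlier results of these data known.

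The data are chromatin immunoprecipitation and sequencing (ChIP-seq) peak lists from Drosophila melanogaster embryos collected over 0 to 24 h. The embryos were whole animals of 1 transgenic strain with an insertion that targets CG4730 and yields a CG4730-eGFP fusion, and the DNA was recovered with an antibody to GFP after sonication to fragments of 200 to 800 bp. There was 1 group with 2 biological replicates of the same strain, and the control library was not analysed here. The read depth is not given in the sources used here, and the authors' pooled set held 3571 peaks. The tagged protein was measured over all cell types of the embryo and all ages of the collection at once, so binding in few cells and weak binding in many cells cannot be told apart.

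Oxidative phosphorylation takes place in the inner mitochondrial membrane. Complexes I and II pass electrons from NADH and succinate to ubiquinone, complex III passes them on to cytochrome c, and complex IV reduces oxygen, while complexes I, III and IV pump protons that drive ATP synthesis by complex V. Most subunits are encoded in the nucleus and imported, and Drosophila has duplicate copies of many of these genes, several of which are known for expression in the testis.

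Of the 88 members, 11 were bound (12.5%, Wilson 95% interval 7.13 to 21.0%), where 13.7% of all protein-coding genes were. The share of the members was thus near that of the genome. It was 10.2% (9 members) against 12.7% of all coding genes in the authors' conservative set, 11.4% (10 members) against 9.88% in the own set of replicate 1, and 9.09% (8 members) against 10.5% in that of replicate 2. In each of the 4 sets the interval of the members' share contained the value for all coding genes.

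The 11 bound members belonged to complexes I, IV and V. In complex I, 5 of 40 were bound (12.5%, Wilson 95% interval 5.46 to 26.1%): ND-ASHI, ND-24, ND-MWFE, ND-51 and ND-SGDH. In complex IV, 4 of 16 were bound (25%, 10.2 to 49.5%): COX8, COX7B, COX5A and COX6B. In complex V, 2 of 15 were bound (13.3%, 3.74 to 37.9%): ATPsynE and ATPsynCF6. No member was bound among the 8 of complex II or the 9 of complex III. With so few genes a count of 0 allows a share of up to 37.5% and 33.3%, so the absence of peaks there was not distinguishable from the background share. The intervals of all 5 complexes contained 13.7%, and a difference between complexes was not tested, since genes are not replicates.

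**Figure D1:**
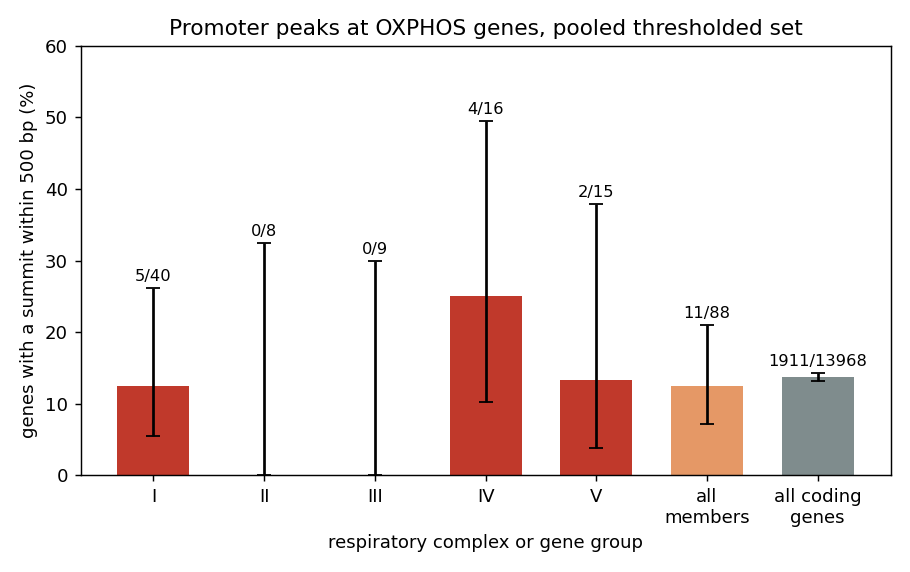
Share of genes (%) with a peak summit of the pooled thresholded set within 500 bp of a start, for each complex, for all 88 members and for all coding genes. Bars are shares, whiskers are Wilson 95% intervals and the fractions give bound over total genes, and the whisker of every complex spans the 13.7% of all coding genes.

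The order of complexes was not the same in the replicates' own sets. Complex I had 7 bound members in replicate 1 and 5 in replicate 2, complex IV had 1 and 2, and complex V had 2 and 1. Complexes II and III had 0 in both. The 25% of complex IV in the pooled set therefore stood beside 6.25% in replicate 1's own set and 12.5% in replicate 2's. Of all coding genes, 9.88% and 10.5% were bound in those 2 sets, against 13.7% in the pooled set.

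Within complexes, all bound members were subunits whose names do not mark them as duplicate copies. Of the 24 members whose symbols end in L or in L and a number for a like copy, 0 were bound. Of the 64 others, 11 were bound (17.2%, Wilson 95% interval 9.88 to 28.2%). For the copies, 3 counts of 24 would be 12.5% and the Wilson interval reaches 13.8%. These bounds fall on either side of the 13.7% of all coding genes, so a share below that background was not settled at this number of genes. The count of 0 also depends on the set used. Among these copies, COX7AL2 had a peak with a pooled signal of 87.7 that passed the authors' threshold but is not in the pooled thresholded set. ND-24L was bound in the own set of replicate 1. In complex I the core NADH module, which takes electrons from NADH, had ND-24 and ND-51 bound and ND-75 not bound (66.7%, Wilson 95% interval 20.8 to 93.9%). The quinone module, which hands them to ubiquinone, had 0 of 4 bound. There 3 counts of 4 would be 75%, and the Wilson interval reaches 49.0%. In complex IV 4 of the 8 members that are not named as copies were bound (50%, 21.5 to 78.5%). These intervals of the NADH module and of complex IV without copies lay above 13.7%, but the subgroups are of 3 and 8 genes. They were drawn up with earlier results of these data known and are among many subgroups counted. Of the 8 complex IV members named as copies, 0 were bound, so leaving them out could only raise the share from 25%. COX8 and COX6B were in the own set of neither replicate. No conclusion is drawn from these 2 intervals. In the own sets of replicates 1 and 2, complex IV as a whole had only 1 and 2 bound members. In complex V the peripheral stalk had 1 of 4 bound (25%, 4.56 to 69.9%), and the membrane part at the dimer interface had 1 of 3 (33.3%, 6.15 to 79.2%). The F1 part, where ATP is made, had 0 of 3 (Wilson 95% interval 0 to 56.1%): ATPsynbeta, ATPsyndelta and ATPsyngamma. The alpha subunit of the F1 part, blw, is not a member by its symbol and was bound, with a pooled signal of 296.

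The sequences around some summits of bound members are shown here because each lies between, or just inside, a pair of divergent genes. ND-ASHI, ND-24, ND-51 and COX8 are shown for the strength of their peaks, and ND-SGDH for a motif match and COX6B for its base composition, both added after their values had been seen. All are from the plus strand of the NCBI Release 6 sequence of dm6, 5′ to 3′, and the 11 capitals are centred on the summit. The stretches are ND-ASHI at chrX:6679255-6679515, ND-24 at chrX:17632180-17632253, ND-51 at chr2L:6062758-6062960, COX8 at chr3L:21539448-21539663, ND-SGDH at chr3L:12138585-12138815 and COX6B at chrX:19744336-19744430.
ND-ASHI: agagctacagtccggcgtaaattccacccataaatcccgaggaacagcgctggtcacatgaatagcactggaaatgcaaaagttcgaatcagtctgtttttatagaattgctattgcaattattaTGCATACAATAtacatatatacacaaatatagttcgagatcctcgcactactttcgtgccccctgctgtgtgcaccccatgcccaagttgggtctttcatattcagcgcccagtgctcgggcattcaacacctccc
ND-24: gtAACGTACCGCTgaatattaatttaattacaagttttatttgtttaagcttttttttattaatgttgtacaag
ND-51: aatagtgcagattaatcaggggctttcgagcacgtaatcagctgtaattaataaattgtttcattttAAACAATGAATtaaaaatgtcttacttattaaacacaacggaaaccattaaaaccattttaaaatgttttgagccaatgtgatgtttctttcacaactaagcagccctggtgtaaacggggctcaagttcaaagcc
COX8: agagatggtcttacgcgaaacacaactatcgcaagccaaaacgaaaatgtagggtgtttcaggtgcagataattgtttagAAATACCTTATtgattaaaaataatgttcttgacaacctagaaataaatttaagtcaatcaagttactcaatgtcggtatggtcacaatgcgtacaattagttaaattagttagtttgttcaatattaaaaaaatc
ND-SGDH: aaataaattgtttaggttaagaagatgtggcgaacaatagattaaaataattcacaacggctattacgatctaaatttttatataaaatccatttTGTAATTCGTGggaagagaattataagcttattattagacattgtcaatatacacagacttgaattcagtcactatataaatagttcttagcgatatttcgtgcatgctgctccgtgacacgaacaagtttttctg
COX6B: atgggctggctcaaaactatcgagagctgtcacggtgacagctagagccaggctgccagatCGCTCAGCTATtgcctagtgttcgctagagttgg

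Around the summits of ND-ASHI, ND-24, ND-51, COX8 and ND-SGDH the 101 bases centred on the summit were A+T rich, at 69.3, 80.2, 73.3, 71.3 and 73.3%. Around that of COX6B they held 42.6%. The median over the 11 summits of bound members was 71.3%, against 68.3% over the 1442 summits within 500 bp of any coding start. COX6B was the lowest of the 11, and the other 10 lay between 65.3 and 80.2%.

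The strongest peak at a member was at ND-ASHI (FBgn0029888), an accessory subunit of the membrane arm of complex I (human NDUFB8). The peak covers 6679287 to 6679468 on X and peaked 267 bp upstream of the start, with a pooled signal of 295, rank 365 of 3571 peaks. Signal is the value the authors gave each peak, in a unit they did not state, and it serves to rank peaks within a list. The strongest ranked peak within 500 bp had a signal of 162 in replicate 1 and 136 in replicate 2 (149 ± 18.2, mean ± SD, n = 2). Both replicates held the peak in their own sets. Its summit lay in an intron of Fum1, the gene for fumarase of the citric acid cycle. The nearest annotated start of Fum1 was 255 bp away on the other side, and the longer annotated span of Fum1 includes the summit. Thus 1 peak stood between these starts of a complex I gene and a citric acid cycle gene.

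ND-24 (FBgn0030853) encodes an iron-sulphur subunit of the NADH module, the orthologue of human NDUFV2. Its pooled peak (X, 17632115 to 17632268) had a signal of 261, rank 457, and the replicates had 133 and 117 (125 ± 11.6, SD, n = 2). The summit was 98 bp downstream of the start, inside an intron of the gene, and the start of corolla, a gene of the meiotic synaptonemal complex, lay 140 bp from the summit on the other strand. The starts of ND-24 and corolla were 42 bp apart, the smallest gap between divergent starts at the 11 summits.

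ND-MWFE (FBgn0085468), the orthologue of human NDUFA1, had a pooled peak on 2R from 13158299 to 13158638 with a signal of 237, rank 532. The replicates had 139.8 and 91.2 (115 ± 34.4, SD, n = 2), a wider spread than at ND-ASHI and ND-24. Its summit was 197 bp upstream of the start of ND-MWFE and 24 bp upstream of the nearest annotated start of TppII, which encodes a large peptidase. TppII thus had the nearer start, and the summit also lay in an intron of its longer annotated span.

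ND-51 (FBgn0031771) encodes the flavin-carrying subunit that binds NADH, the orthologue of human NDUFV1. Its pooled peak (2L, 6062660 to 6062999) had a signal of 163, rank 990, with 72.1 in replicate 1 and 94.3 in replicate 2 (83.2 ± 15.7, SD, n = 2). The summit was 73 bp upstream of ND-51 and 159 bp upstream of CG13994, in the 232 bp between their starts. ND-SGDH (FBgn0011455; human NDUFB5) had the weakest peak of the complex I members, on 3L from 12138515 to 12138854, with a pooled signal of 85.1, rank 2441. The replicates had 47.8 and 40.6 (44.2 ± 5.08, SD, n = 2), and the peak passed the threshold in replicate 1's own set but not in replicate 2's. Its summit was 101 bp upstream of ND-SGDH.

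Of the complex IV members, which are nuclear-encoded subunits of cytochrome c oxidase, COX8 (FBgn0263911; 3L, 21539363 to 21539702) had the highest pooled signal, 143, rank 1208. Replicate 2's ranked list gave it 65.4 and replicate 1's held no peak within 500 bp. The own sets of both replicates and the conservative set all lacked the peak. Among the 1911 bound coding genes, 52 (2.72%) likewise had no ranked peak in replicate 1. The summit was 86 bp upstream of COX8 and 329 bp upstream of VhaM9.7-b, a subunit of the vacuolar proton pump.

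COX7B (FBgn0040793; 3L, 17425138 to 17425477) had a pooled signal of 118, rank 1580, and 57.4 and 48.3 in the replicates (52.9 ± 6.44, SD, n = 2). It was the only complex IV member whose peak was in the own sets of both replicates. Its summit was 169 bp upstream of COX7B and 91 bp upstream of Sec3, a gene of the exocyst. COX5A (FBgn0019624; 3R, 11819324 to 11819663) had a pooled signal of 104, rank 1889, and 42.4 and 60.7 in the replicates (51.6 ± 12.9, SD, n = 2), and was in the own set of replicate 2 only. The summit was 105 bp upstream of the nearer of its annotated starts, in an intron of its longer transcript, and 74 bp upstream of glo, which encodes an RNA-binding protein.

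COX6B (FBgn0031066; X, 19744232 to 19744571), whose mammalian counterpart lies on the intermembrane side of the enzyme, had the weakest peak of the 11, with a pooled signal of 65.8, rank 3192. The replicates had 39.7 and 30.1 (34.9 ± 6.76, SD, n = 2), and neither replicate's own set held the peak, though the conservative set did. The summit was 67 bp upstream of COX6B and of CG18809, which share a start, and 29 bp upstream of CG33932 and Rpp20 on the other strand. The divergent starts were 96 bp apart.

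In complex V, ATPsynE (FBgn0038224) encodes subunit e of the membrane part. Its peak (3R, 14326789 to 14327128) had a pooled signal of 139, rank 1277, and 54.4 and 83.5 in the replicates (69.0 ± 20.5, SD, n = 2). The summit lay 12 bp downstream of the start, the smallest distance among the 11 bound members, and 270 bp from the start of Afti. ATPsynCF6 (FBgn0016119; 3R, 23356090 to 23356429), a subunit of the peripheral stalk, had a pooled signal of 74.9, rank 2803. Its replicates had 61.3 and 18.4 (39.9 ± 30.3, SD, n = 2), the widest relative spread among the bound members with a peak in both, and the peak was in the own set of replicate 1 only and not in the conservative set. Its summit was 196 bp upstream of ATPsynCF6 and 18 bp upstream of Sec13, a coat and nuclear pore protein.

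**Figure D2:**
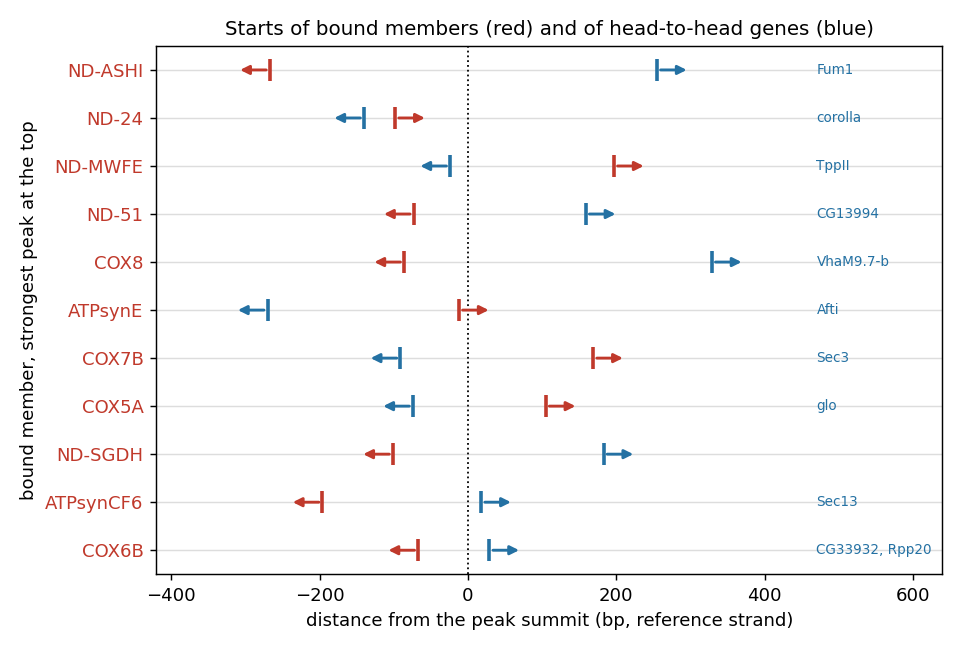
Position of transcript starts (bp, reference strand) relative to the peak summit at 0, for the 11 bound members in order of pooled signal. Red ticks and arrows are the members' starts and directions of transcription, blue ones those of the head-to-head genes, named at the right except at ND-SGDH, and each summit has a start of another gene within 500 bp.

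In all, 6 of the 11 bound members had a peak in the own sets of both replicates (54.5%), against 59.2% of bound coding genes, and 2 had one in neither (18.2% against 16.0%). The 6 were ND-ASHI, ND-24, ND-MWFE, ND-51, ATPsynE and COX7B, and the 2 were COX8 and COX6B. The median pooled signal was 139 over the bound members and 135 over the bound coding genes. The −log10 of the global irreproducible discovery rate (IDR), on which the authors thresholded the peaks, ran from 2.19 at COX6B to 5 at ND-ASHI, where 2.00 was the lowest kept. The 11 genes rested on 11 distinct peaks, and 9 of the summits were upstream of the member's start.

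Every one of the 11 summits had the start of another gene within 500 bp (100%). In each case at least 1 of these was a coding gene transcribed away from the member's start nearest to the summit. At COX5A the start of glo lay inside the longer COX5A transcript. Of the 1911 bound coding genes, 1152 (60.3%) shared their summit with another gene's start. The member had the nearest start at 5 summits (ND-24, ND-51, COX8, ATPsynE and ND-SGDH) and another gene at 6. A peak between divergent starts is counted for both genes, and which of them, if either, the tagged protein acts on was not tested.

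The arrangement of starts separated the members as follows. A head-to-head coding start within 1000 bp was present at 44 members (50%), against 5052 coding genes (36.2%). Of these, 11 members (25%, Wilson 95% interval 14.6 to 39.4%) and 1252 coding genes (24.8%) were bound. Of the genes without one, 0 of 44 members and 659 of 8916 coding genes (7.39%) were bound. For those members 3 counts of 44 would be 6.82% and the Wilson 95% interval reaches 8.03%, on either side of the 7.39%, so a lower share than in other genes of this arrangement was not settled. In the own sets of replicates 1 and 2, 9 (20.5%) and 8 (18.2%) of the members with a head-to-head start were bound, against 18.2% and 18.7% of coding genes. Among the others the counts were 1 member (2.27%) and 0, against 5.17% and 5.76% of coding genes. Members with a divergent partner were thus bound about as often as other genes with one.

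**Figure D3:**
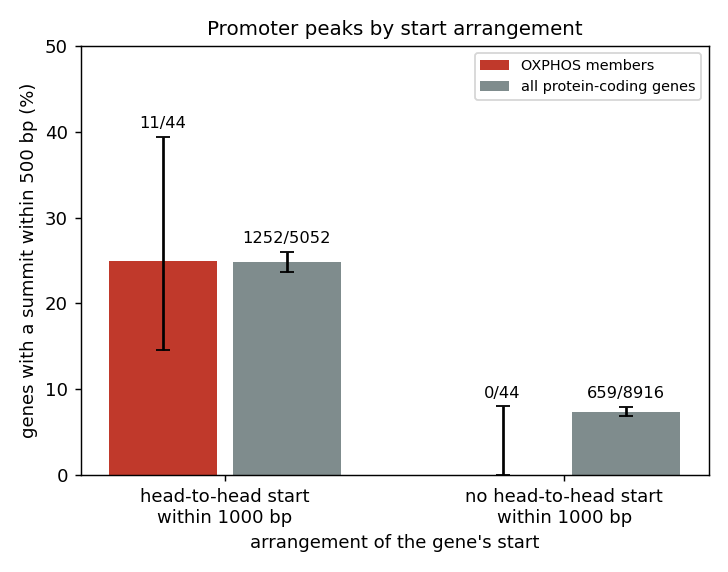
Share of genes (%) bound in the pooled thresholded set, for OXPHOS members and for all protein-coding genes, with and without a head-to-head start within 1000 bp. Bars are shares, whiskers are Wilson 95% intervals and the fractions give bound over total genes, and the bars with a head-to-head start stand at 25% and 24.8%.

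Below the threshold, the ranked lists gave a value to most members. The median of the strongest ranked pooled signal within 500 bp was 28.3 over the 88 members and 26.9 over all coding genes, with a gene without a peak counted as 0. In replicate 1 it was 12.4 for members and 13.8 for all coding genes, and in replicate 2 it was 14.8 and 15.2. No ranked pooled peak was found near 18 members (20.5%), against 22.0% of coding genes. Over the 77 members that were not bound the median was 23.3, against 23.2 over coding genes that were not bound.

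By complex the medians of this pooled ranked signal were 29.6 in complex I, 31.6 in complex II, 18.4 in complex III, 25.1 in complex IV and 24.4 in complex V. All 8 genes of complex II, the succinate dehydrogenase, had a ranked peak, from 16.2 at SdhA, the flavoprotein subunit, to 45.4 at SdhC, a membrane anchor. In complex III, the cytochrome bc1 complex, the highest was 49.8 at UQCR-6.4L, UQCR-C1 had 7.02 and UQCR-11 had no ranked peak. The members on chromosome 4, ND-49 of the quinone module and ATPsynbeta, the catalytic subunit of ATP synthase, had no ranked peak in any of the 3 lists. On that chromosome 1 of 80 coding genes (1.25%) was bound.

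**Figure D4:**
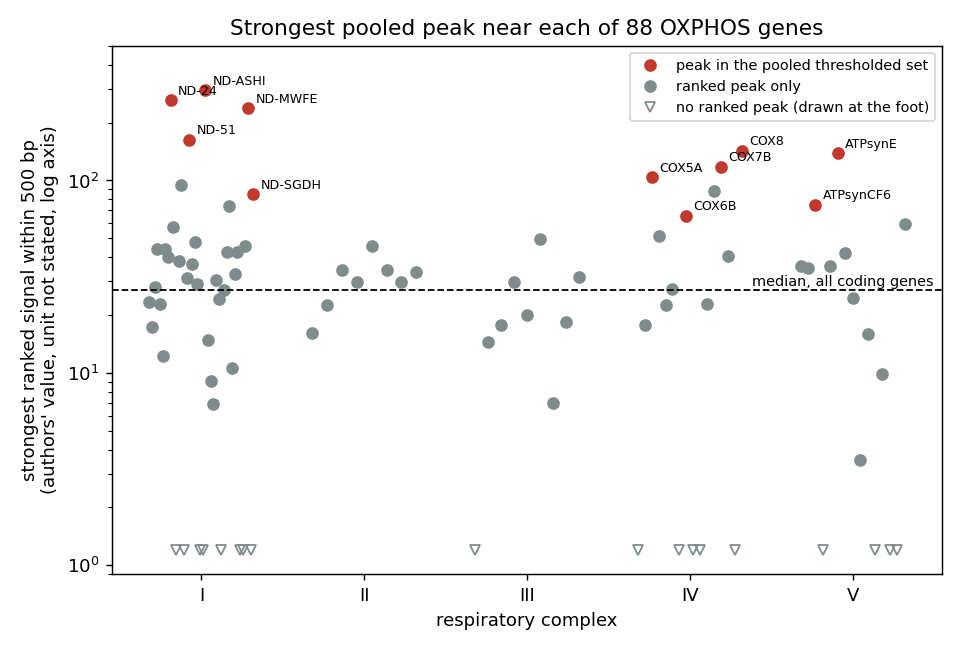
Strongest ranked pooled signal within 500 bp of a start (authors' value, unit not stated, log axis) for each of the 88 members by complex, with the 11 bound members in red and named. The dashed line is the median of all coding genes, 26.9, and open triangles at the foot are genes with no ranked peak.

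The replicates ranked the members in a similar but not identical order. Of the 88 members, 47 had a ranked peak in both replicates, 10 in replicate 1 only, 19 in replicate 2 only and 12 in neither. Spearman's rho over the 47 was 0.647, as a description across genes, which share the libraries and are not independent.

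**Figure D5:**
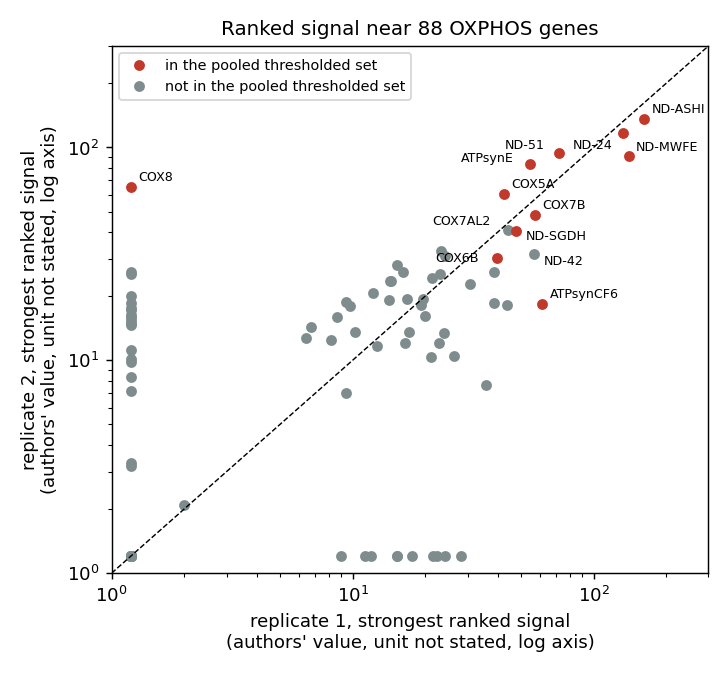
Strongest ranked signal within 500 bp of each member's starts in replicate 1 (x) and replicate 2 (y), authors' value on log axes, with members without a ranked peak placed along the lower or left edge. Bound members (red) lie at the upper right, except COX8, which has no ranked peak in replicate 1, and ATPsynCF6, which is lower in replicate 2.

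Among the members that were not bound, ND-42, an accessory subunit of complex I (human NDUFA10), had the highest ranked pooled signal at 94.8 (3R, 22027400 to 22027739). Its −log10 IDR was 0.129, far below the 2.00 of the lowest peak kept. In replicate 1's own set it had a peak of 56.8, 119 bp upstream, and in replicate 2's own set peaks of 31.5 and 16.4, 258 and 22 bp upstream. ND-42 was thus present in the own sets of both replicates and absent from the pooled set, as were 13 coding genes in all. Next came COX7AL2, a COX7A-like copy, at 87.7, then ND-B17 (human NDUFB6) at 73.8, ATPsyngamma, the rotating shaft of the F1 part, at 59.4 and ND-24L, a copy of ND-24, at 57.6. The −log10 IDR was 0.446 at ND-B17, 0.855 at ATPsyngamma and 1.12 at ND-24L. ND-24L was in the own set of replicate 1 alone, with a peak of 43.8, 354 bp downstream of its start.

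Between 500 and 1000 bp from a start lay 1 further gene with a thresholded peak. SdhA had a summit 897 bp upstream with a signal of 113, and this summit was 96 bp upstream of cer, which encodes a protease inhibitor. ATPsynE had a second peak of 107, 866 bp downstream of its start and 117 bp upstream of spn-B, a meiotic recombination gene. Both lay nearer to the other gene's start.

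Known promoter motifs were counted in the 300 bases from 250 before to 50 after each member's outermost start, on both strands. The motif 1 core GGTCACAC was in 16 of 88 member promoters (18.2%), against 7.69% of all coding promoters, and in 3 of the 11 bound ones (27.3%; COX5A, COX7B and ND-MWFE), against 10.4% of bound coding genes. The nuclear respiratory gene element (TTACATAA, TTACGTAA, TTATATAA or TTATGTAA), described at genes of this kind in Drosophila, was in 6 (6.82%) against 5.18%. In the ND-SGDH stretch printed above it is TTATATAA at bases 79 to 86, before the summit at base 101, and it overlaps TATAAA at bases 82 to 87. The DRE core TATCGATA was in 9 (10.2%) against 9.36% and in 0 of the 11 bound, against 13.3% of bound coding genes. The TATA box TATAAA was in 49 (55.7%) against 45.8%, the E-box CACGTG in 4 (4.55%) against 4.20%, and the estrogen-related receptor site CAAGGTCA in 0 against 0.494%. These are letter matches and not sites of binding. The shares among the 11 bound members rest on few promoters, and no difference between them and other genes was tested.

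Other genes of the same metabolism were set beside the members by the same rule, against the 13.7% of all coding genes. Of 9 genes of the respiratory chain with other names, 3 were bound (33.3%, Wilson 95% interval 12.1 to 64.6%): levy, a COX6A gene, with a pooled signal of 332, blw, the ATP synthase alpha subunit, with 296, and Cyt-c-d, a cytochrome c, with 512. The replicates had 159.5 and 174 at levy, 157 and 143 at blw, and 264 and 253 at Cyt-c-d. The signal at Cyt-c-d exceeded the strongest at the 11 bound members in both replicates. Those at levy, 167 ± 10.5 over the replicates, and blw, 149.9 ± 10.1, stood beside 149 ± 18.2 at ND-ASHI (SD, n = 2 each). An SD of 2 values cannot show whether these signals differ. The summit at Cyt-c-d lay 358 bp downstream of that gene's start, and CG31808 had the nearer start. At levy the summit lay 147 bp upstream, and wmd had the nearer start. The summit at blw, 167 bp upstream, had no other gene's start within 500 bp, unlike those of the 11 bound members. Of 19 genes of pyruvate dehydrogenase and the citric acid cycle 4 were bound (21.1%, 8.51 to 43.3%): Idh3g with 711, Fum1 with 295 through the peak it shares with ND-ASHI, Pdhb with 141 and mAcon1 with 88.5. The summits at Idh3g, Pdhb and mAcon1 also had starts of other genes within 500 bp, though the named gene had the nearest start at each. Of 10 assembly factors 1 was bound (10%, 1.79 to 40.4%), CIA30, an assembly factor of complex I, with 1834 (919 and 929 in the replicates), rank 3 of all peaks, whose summit was 117 bp upstream of CIA30 and 103 bp upstream of CG7601. Of 15 genes of mitochondrial carriers and biogenesis 1 was bound (6.67%, 1.19 to 29.8%), ERR, a nuclear receptor of metabolic genes, with 211, which shared its peak with Atg18a. There Atg18a had the nearer start. The intervals of all 4 lists contained 13.7%.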

How the data were processed

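The files are the peak lists the authors deposited for 1 group of 2 biological replicates, on dm6 per the labels. For each replicate and for the pooled replicates there is a ranked list and a list thresholded at a global IDR of 0.01, and a conservative set for the pool. The deposited signal is given without a unit. The ranked lists also give −log10 of the global IDR per the file layout the authors deposited. The control library was not analysed here, and the peak caller, the aligner, their versions and the read depth are not given in the sources used here. A further 32 columns of the ranked lists, with unnamed values of the compared inputs, were not used.

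Summits were set against the transcript starts of Ensembl release 115 on 7 arms, without transposable-element entries, and sequence came from NCBI Release 6. All peaks and genes on an arm ended within the length of its sequence. No test was run, since the labels give no second group. Shares carry Wilson 95% intervals, and a count of 0 allows 3 counts of the total. Both cover counting error only. Values are described per list, and those of replicates as mean ± SD. Replicates were labelled biological. Other settings tried were the conservative set, the 1776 peaks of highest signal, the sets of single replicates, windows of 100, 250 and 1000 bp, overlap in place of the summit, the outermost start, nearest and unshared starts, and leaving out the 20 copies of another member and the assembly factor.

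The members and lists were chosen with earlier results of these data known. All bound members were to be named. So were members with a thresholded summit at 500 to 1000 bp or bound in a replicate's or the conservative set only, and the 5 unbound ones with the highest ranked signal. In the other lists the bound genes were named. The neighbour at ND-SGDH is not reported here by name. List symbols IF1A, Ecsit and tam found no match. The counting was tested on simulated summits: of 200 genes planted within 500 bp 100% were called, of 200 planted outside 0%, on 13968 genes. Python 3.11.15, numpy 2.4.6, pandas 2.3.3, scipy 1.17.1 and matplotlib 3.10.9 were used.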

Additional observations from a re-analysis of the deposited data

Results flagged for a closer look

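COX7AL2, a COX7A-like gene of complex IV, had a ranked peak that passed the global IDR threshold, with a −log10 IDR of 2.63, and is not in the pooled thresholded set. Its pooled signal was 87.7, with 44.3 in replicate 1 and 40.9 in replicate 2, on 2L from 2197286 to 2197625. These values lay within the range of the bound members, where the lowest pooled signal was 65.8. The summit was 456 bp downstream of the start of COX7AL2, with no other gene's start within 500 bp. It was singled out because the counts of bound genes do not use this peak, which enters only the ranked signals. On the arms, 84 such ranked peaks were left out of the pooled set.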

How the results depend on the processing

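The count of 11 bound members was within 1.5 times of itself in the conservative set (9), with windows of 250 and 1000 bp (10 and 12), with peak overlap, with the outermost start and without the 20 copies of another member and the assembly factor (11 each, the last of 67), and ran from 8 to 10 in the replicates' own sets. With the stronger 1776 peaks it was 7, with a window of 100 bp 5, with the nearest coding start only 5 and without summits near another gene's start 0. Under these 4 settings the share of all other coding genes, 13.7% in the pooled set, was 8.60, 3.96, 10.03 and 5.47%, beside 7.95, 5.68, 5.68 and 0% of members. The same share was 12.7% in the conservative set, 9.87 to 10.5% in the replicates' own sets, 10.5% and 16.5% with windows of 250 and 1000 bp, 14.8% with overlap and 11.9% with the outermost start. Complex I had 2 with 100 bp, 3 with the nearest start and 0 with unshared summits. Complex II had 1 with 1000 bp. Complex IV had 2 with the stronger peaks and with 100 bp, 1 with the nearest start, 0 with unshared summits and 1 to 2 in the replicates' own sets. Complex V had 1 in the conservative set, with the stronger peaks, with 100 bp and with the nearest start, 0 with unshared summits and 1 to 2 in the replicates' own sets. Complex III stayed at 0 under all 12 alternatives. The median ranked signal of 28.3 was 0 with 100 bp and 12.4 to 14.8 in the replicates' lists. Fewer genes can be called under a shorter window or a stricter set, and other causes were not tested. No paired analysis was possible because there is 1 group. Read depth is unknown, and small complexes limit each share.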
